A study of Mus musculus with 6 samples.

Results

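The genes described here encode the machinery of autophagy. They were chosen as a list of 41 gene symbols, and all 41 had a row among the 46095 gene symbols of the count table. RNA came from BV2, a mouse microglial line kept in culture after immortalization, which limits it as a model of microglia in the brain. The CON group was untreated, and the sTREM-1 group was incubated for 6 h with 1 μg/mL of recombinant sTREM-1 protein, the soluble form of a receptor that myeloid cells release during inflammation. Each group had 3 libraries, and no label says whether their wells came from separate passages, so the p-values measure the spread between these libraries. The libraries held 40070633 to 45877107 counts. A gene was tested when it had enough counts for edgeR's filter, which kept 14120 genes and 40 of the 41. A gene was called higher or lower when its p-value, adjusted over all tested genes by the Benjamini-Hochberg method, was under 0.05 (edgeR's quasi-likelihood test). Levels are given as CPM, counts scaled by the TMM-adjusted total of each library, in the order of replicates 1, 2 and 3. BV2 cells are of 1 kind, but in such bulk RNA fewer cells with a transcript and less of it per cell cannot be told apart.

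Autophagy encloses cytoplasm, organelles or aggregates in a double membrane, the autophagosome, and delivers them to lysosomes. The ULK1 complex starts the process, a class III PI3-kinase marks the membrane with PI3P, and ATG2, ATG9 and VMP1 proteins move lipids to it. A ubiquitin-like cascade then attaches small ATG8 proteins (LC3 and GABARAP) to the membrane, cargo receptors such as p62 bind both the cargo and ATG8, and the closed vesicle fuses with lysosomes. Microglia use the same pathway to handle engulfed material, and part of the conjugation cascade also acts on phagosomes.

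Compared with the CON group, 4 of the 5 ATG8 genes and Sqstm1, the gene of the receptor p62, were lower after sTREM-1, with the call of Map1lc3a close to the threshold. Of the 6 genes of the class III PI3-kinase complexes, Pik3c3 and Becn1 were slightly higher, Uvrag was lower and 3 were not called. Of the 40 tested genes 14 were called, 4 higher and 10 lower. This is 35.0% of the genes, against 30.5% of all tested genes. The share called lower was 25%, against 14.1% of all tested genes, and the share called higher was 10%, against 16.5%. Well expressed genes were called more often in these libraries. Among genes with a mean of at least 10 CPM, 42% were called (23.4% higher and 18.7% lower), and of the 37 autophagy genes above that level 37.8% were called (10.8% higher and 27.0% lower). The total share was thus near that of other genes, and the changes were small. The log2 fold changes had a median of -0.0025 and quartiles of -0.13 and 0.08, against a median of -0.0017 and quartiles of -0.13 and 0.13 over all tested genes. The log2 fold changes of single genes ran from -0.39 to 0.21, and 3 of the called genes, Gabarapl1, Atg12 and Sqstm1, changed at least 1.2-fold. Of all 14120 tested genes 1517 were called with a change of at least 1.2-fold. All sTREM-1 libraries lay above every CON library for 11 of the 40 genes (21.3% of all tested genes did so) and below every CON library for 14 (19.4% of all tested genes). In all, 40.7% of tested genes had groups that did not overlap.

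**Figure D1:**
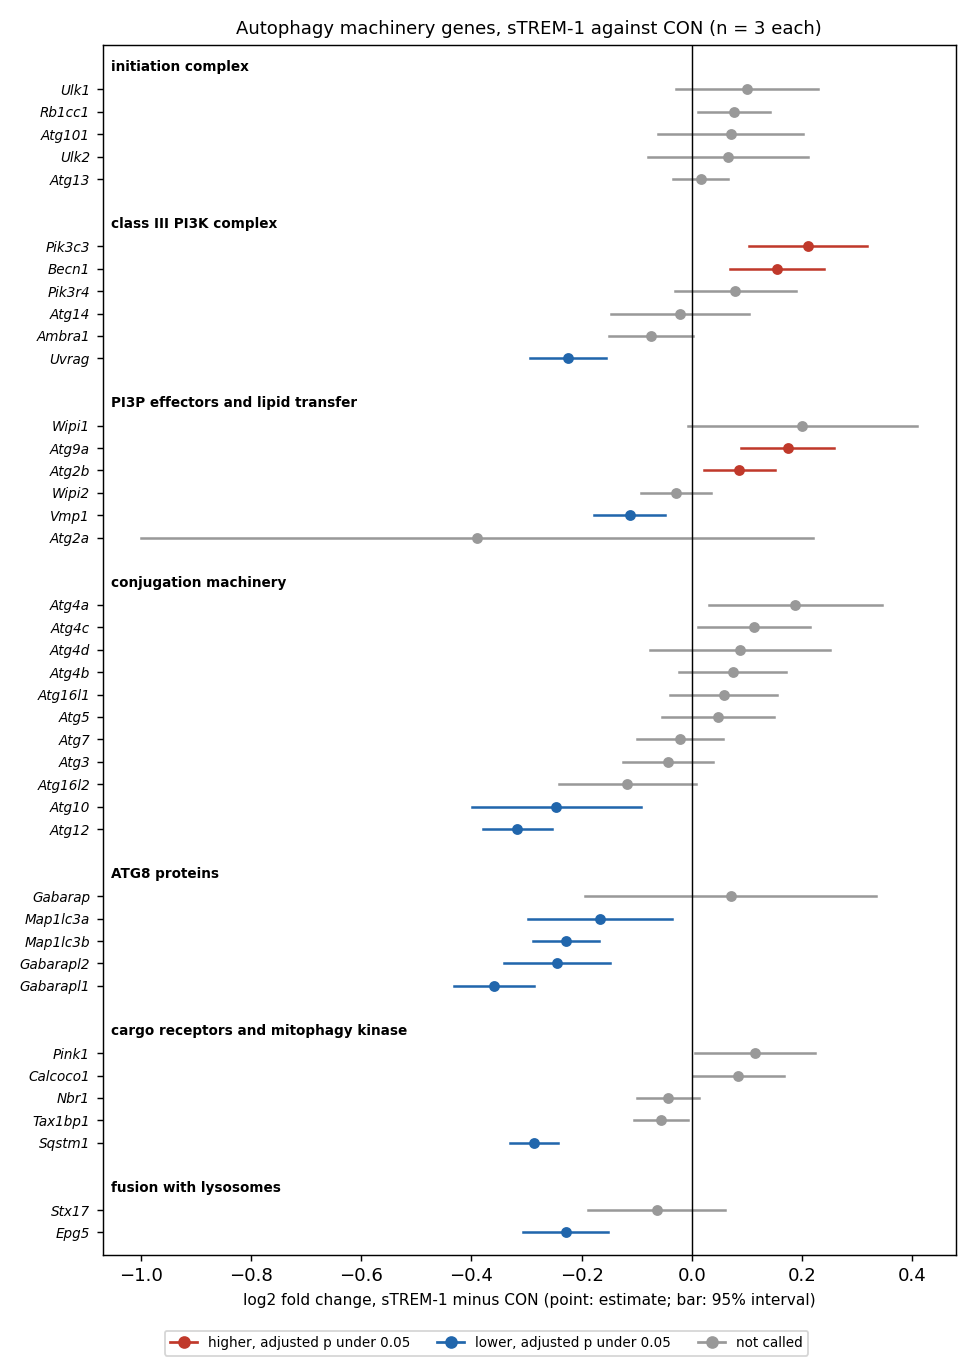
Log2 fold change (sTREM-1 minus CON, horizontal axis) of the 40 tested autophagy genes by role, with the 95% interval of the fit as a bar. The 4 genes called higher are Pik3c3, Becn1, Atg9a and Atg2b, and 4 of the 5 ATG8 genes lie to the left of 0 together with Sqstm1, Atg12, Atg10, Epg5, Uvrag and Vmp1.

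The 5 ATG8 genes encode the ubiquitin-like proteins that are joined to the autophagosome membrane, and 4 of them fell. This is 80%, where 14.1% of all tested genes and 18.7% of those of at least 10 CPM were called lower. Gabarapl1, on chromosome 6 of GRCm38 from 129533160 to 129542346, had 91.7, 92.0 and 91.1 CPM in the CON libraries and 71.9, 73.3 and 69.0 CPM after sTREM-1. The groups were far apart, and the CON libraries lay close together. It fell by 22.0%, a log2 fold change of -0.36 (standard error 0.04, adjusted p = 2.45e-09). Map1lc3b encodes LC3B, the form most used as an autophagosome marker. It lies on chromosome 8 from 121590361 to 121598760 and had 187, 177 and 176 CPM in the CON libraries against 151, 155 and 154 CPM after sTREM-1. Every treated library lay below every untreated one, and the log2 fold change was -0.23 (standard error 0.03, adjusted p = 3.27e-07). Its exons overlap those of Zcchc14 on the opposite strand over 58 bases, and Zcchc14 was also called lower (log2 fold change -0.24). Gabarapl2, also called GATE-16, is on chromosome 8 from 111940703 to 111953612. It had 48.6, 51.3 and 47.8 CPM in the CON group and 43.6, 39.6 and 41.4 CPM after sTREM-1, a log2 fold change of -0.24 (standard error 0.05, adjusted p = 0.000138). It shares 349 bases at 99.4% identity with Gm3724, a locus of 149 counts over all 6 libraries.

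Map1lc3a, which encodes LC3A, was the least certain of these calls. It had 25.4, 26.1 and 25.2 CPM in the CON libraries and 21.9, 24.8 and 21.5 CPM after sTREM-1, with sTREM-1 replicate 2 close to the CON libraries. The log2 fold change was -0.17 (standard error 0.06, adjusted p = 0.0473), and it passed 0.05 in 5 of 13 alternative fits. Without CON replicate 1, 2 or 3 the adjusted p was 0.0968, 0.13 or 0.0816, and without sTREM-1 replicate 1 or 3 it was 0.173 or 0.179. Gabarap had 4.74, 5.66 and 5.14 CPM in the CON libraries and 5.08, 6.19 and 5.04 CPM after sTREM-1. The groups overlapped, and its log2 fold change of 0.07 (95% interval -0.19 to 0.33, adjusted p = 0.74) had an interval that did not reach the -0.23 of Map1lc3b. That interval held the -0.17 of Map1lc3a, and the differences between these genes were not tested. In CPM per kb of transcript, Gabarapl1 made up 28.5%, 28.7% and 29.1% of the sum of the 5 genes in the CON libraries and 27.0%, 26.9% and 26.3% after sTREM-1. Map1lc3b held 38.2% to 40.6% in all 6 libraries. The share of Gabarapl1 was lower in every treated library than in any untreated one.

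Promoter windows are shown for the 3 ATG8 genes with the clearest fall, for Sqstm1, which fell with them, and for Atg3, the gene whose window held a full match to the lysosomal gene motif described next. Each window runs from 250 bases before to 50 bases after a RefSeq transcription start on GRCm38.p6, in the direction of the gene. Capitals mark matches to the letters searched, which were CACGTG (E-box), TCACGTGA (the core of the CLEAR motif bound by TFEB and TFE3, which contains the E-box), ACGTG (hypoxia response core, also contained in the E-box), TGACNNNGC (antioxidant response element), GTAAACA (FOXO), TGATGNAA (C/EBP-ATF) and TATAAA, all on both strands.
Sqstm1, chr11:50210771-50211070, minus strand: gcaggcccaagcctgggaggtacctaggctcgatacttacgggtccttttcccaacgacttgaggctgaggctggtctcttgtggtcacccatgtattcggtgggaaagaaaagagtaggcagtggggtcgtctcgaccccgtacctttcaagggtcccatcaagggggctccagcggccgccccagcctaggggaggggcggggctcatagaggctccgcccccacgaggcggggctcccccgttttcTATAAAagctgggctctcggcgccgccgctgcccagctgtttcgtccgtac
Gabarapl1, chr6:129532942-129533241, plus strand: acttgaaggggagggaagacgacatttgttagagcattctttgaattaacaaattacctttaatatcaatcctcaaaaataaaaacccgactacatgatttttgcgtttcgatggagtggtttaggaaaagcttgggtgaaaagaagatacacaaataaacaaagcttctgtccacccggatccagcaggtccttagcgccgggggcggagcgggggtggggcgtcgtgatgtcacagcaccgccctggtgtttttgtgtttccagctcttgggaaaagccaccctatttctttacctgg
Map1lc3b, chr8:121590188-121590487, plus strand: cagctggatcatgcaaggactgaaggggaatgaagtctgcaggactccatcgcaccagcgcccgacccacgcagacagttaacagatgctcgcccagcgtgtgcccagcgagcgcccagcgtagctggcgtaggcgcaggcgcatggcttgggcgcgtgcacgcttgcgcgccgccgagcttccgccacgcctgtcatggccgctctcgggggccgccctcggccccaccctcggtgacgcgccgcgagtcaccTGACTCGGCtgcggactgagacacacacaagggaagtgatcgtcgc
Gabarapl2, chr8:111940453-111940752, plus strand: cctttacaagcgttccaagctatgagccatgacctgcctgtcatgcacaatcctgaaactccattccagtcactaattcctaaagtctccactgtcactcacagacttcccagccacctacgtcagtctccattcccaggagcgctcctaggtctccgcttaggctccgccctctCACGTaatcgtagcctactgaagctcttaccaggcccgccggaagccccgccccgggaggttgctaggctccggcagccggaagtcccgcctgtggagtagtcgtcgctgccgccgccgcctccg
Atg3, chr16:45158579-45158878, plus strand: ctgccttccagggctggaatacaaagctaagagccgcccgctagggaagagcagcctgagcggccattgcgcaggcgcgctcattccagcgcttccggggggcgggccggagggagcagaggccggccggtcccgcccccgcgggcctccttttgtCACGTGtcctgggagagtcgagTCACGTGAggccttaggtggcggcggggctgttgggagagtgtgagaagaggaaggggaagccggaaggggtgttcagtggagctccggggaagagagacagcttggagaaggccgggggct

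The 4 windows of genes that fell had no searched motif in common. Gabarapl1 held no match, Map1lc3b held 1 antioxidant element just after the start, and Gabarapl2 held 1 hypoxia core. Sqstm1 held TATAAA, which began 1 base before the RefSeq start and ran across it. RefSeq windows were found for 34 of the 41 genes. The E-box was present in 4 of the 34 (11.8%), against 8.09% of the 27025 genes with a window, and in none of the 7 genes called lower or the 2 called higher that had one. The genes with an E-box were Atg3, Atg5, Atg7 and Atg14, none of which was called. The antioxidant element was found in 5 of the 34 (14.7%, against 14% of all genes), the hypoxia core in 15 (44.1%, against 21.8%), TATAAA in 2 (5.88%, against 15.7%), and the FOXO and C/EBP-ATF letters in 0 (against 4.05% and 4.51%). A match is a stretch of letters and not a measured binding site. The 27025 genes were not limited to those tested here and were not matched for base content. A gene with several windows counted when any of them matched.

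Sqstm1 encodes p62, a receptor that carries ubiquitin-tagged cargo into autophagosomes and is itself degraded there. It was by far the most abundant of these transcripts. It lies on chromosome 11 from 50199366 to 50210827 and had 3616, 3430.0 and 3581 CPM in the CON libraries and 2876, 2826 and 3014 CPM after sTREM-1. The lowest CON library exceeded the highest sTREM-1 library by a wide margin, and the gene fell by 18.0%, a log2 fold change of -0.29 (standard error 0.02, adjusted p = 5.62e-12). Exons of Sqstm1 overlap those of Mrnip on the opposite strand over 580 bases, and Mrnip was not among the counted gene symbols. The other receptors were not called. Tax1bp1 had 333, 342 and 337 CPM in the CON group and 323, 329 and 322 CPM after sTREM-1, a log2 fold change of -0.06 (adjusted p = 0.077) that passed 0.05 with upper-quartile scaling (adjusted p = 0.0142) and with DESeq2 (adjusted p = 0.035). Nbr1, a relative of p62, had a log2 fold change of -0.04 (95% interval -0.10 to 0.01) and Calcoco1, an ER-phagy receptor, of 0.08. Pink1, the kinase that marks damaged mitochondria, had 28.1, 27.6 and 29.6 CPM against 30.7, 30.5 and 31.1 CPM, a log2 fold change of 0.12 (adjusted p = 0.107). Optn, the gene of optineurin, had 0 counts in all 6 libraries, which allows up to 3 counts, or 0.0756 CPM in the library of least effective depth, by counting error alone. Aif1, the gene of the microglial protein IBA-1, was also listed at 0 in all 6 libraries, and why either gene is at 0 was not tested.

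**Figure D2:**
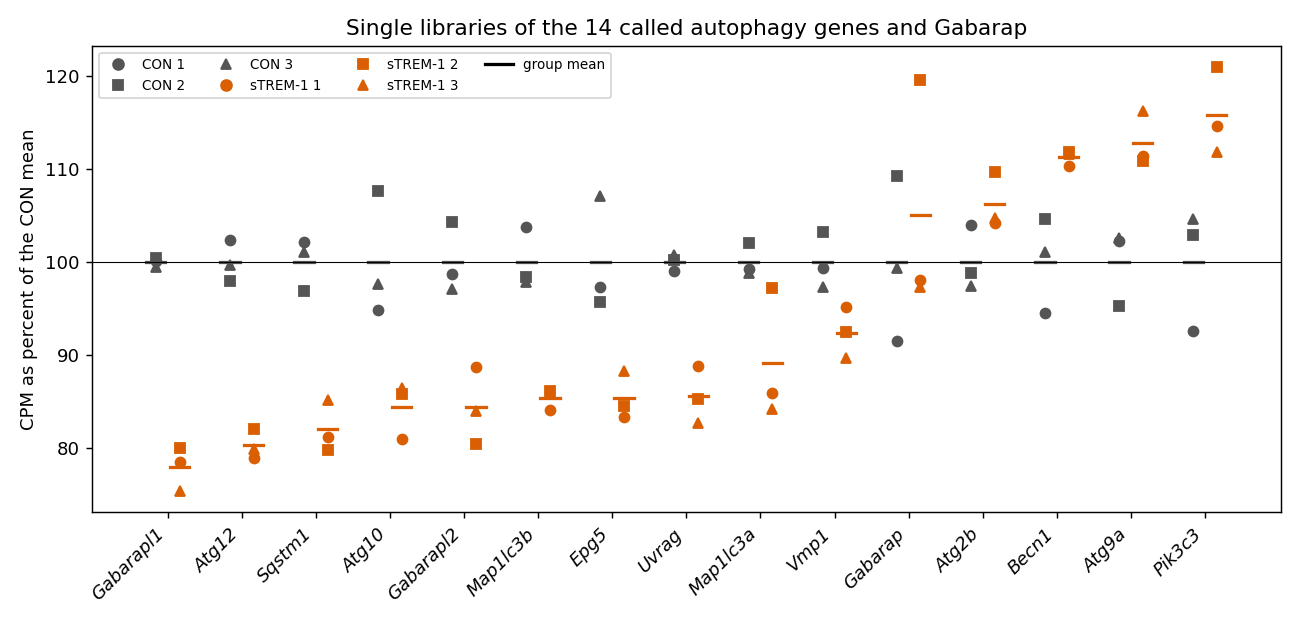
CPM of single libraries as a percent of the CON mean (vertical axis, which does not start at 0) for the 14 called genes and Gabarap, ordered by fold change. Short lines are group means of 3 libraries. The treated libraries of Gabarapl1, Atg12 and Sqstm1 sit well below the untreated ones, whereas those of Gabarap overlap.

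The conjugation machinery, 11 genes of the enzymes that process ATG8 and attach it to lipid, had 0 genes called higher and 2 called lower. The share called lower was 18.2%, near the 14.1% of all tested genes and the 18.7% of those of at least 10 CPM. Of all tested genes 16.5% were called higher. Atg12 encodes the ubiquitin-like protein that, joined to ATG5, directs the attachment. It lies on chromosome 18 from 46730144 to 46741580 and had 147, 141 and 143 CPM in the CON libraries and 114, 118 and 115 CPM after sTREM-1. The groups did not overlap, and it fell by 19.7%, a log2 fold change of -0.32 (standard error 0.03, adjusted p = 1.45e-09). Atg10, the enzyme that transfers ATG12 to ATG5, had 17.5, 19.8 and 18.0 CPM in the CON group and 14.9, 15.8 and 15.9 CPM after sTREM-1, a log2 fold change of -0.25 (standard error 0.08, adjusted p = 0.012). Without CON replicate 2 its adjusted p was 0.0955, and without sTREM-1 replicate 1 it was 0.0592. Atg5 itself, the partner of ATG12, had 34.1, 35.6 and 36.1 CPM against 38.2, 35.6 and 35.4 CPM, so that its groups overlapped.

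The remaining conjugation genes were not called. Atg7, the activating enzyme shared by ATG12 and ATG8, and Atg3, the enzyme that hands ATG8 to lipid, had log2 fold changes of -0.02 and -0.04. The 4 proteases that trim ATG8, Atg4a, Atg4b, Atg4c and Atg4d, had log2 fold changes of 0.19, 0.07, 0.11 and 0.09. Atg4a was nearest to the threshold, with 14.4, 14.1 and 14.8 CPM in the CON group and 16.6, 15.6 and 17.2 CPM after sTREM-1 (adjusted p = 0.0632, and 0.0446 without sTREM-1 replicate 2). Atg4a shares 2115 bases at 99.3% identity with the pseudogene Atg4a-ps, so reads of both could be exchanged. Atg16l1 and Atg16l2, scaffolds of the last step, had log2 fold changes of 0.06 and -0.12.

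Among the 6 genes of the class III PI3-kinase complexes, 2 were higher and 1 was lower. These small counts are 33.3% and 16.7%, against 16.5% and 14.1% of all tested genes. Pik3c3, the catalytic subunit VPS34, lies on chromosome 18 from 30272747 to 30348126 and had 32.1, 35.7 and 36.3 CPM in the CON libraries and 39.7, 41.9 and 38.8 CPM after sTREM-1. It rose by 15.8%, a log2 fold change of 0.21 (standard error 0.05, adjusted p = 0.00218). Becn1, encoding the scaffold Beclin 1, had 53.0, 58.7 and 56.7 CPM in the CON group and 62.0, 62.8 and 62.7 CPM after sTREM-1, a log2 fold change of 0.15 (standard error 0.04, adjusted p = 0.00491). CON replicate 1 was its lowest library, and without it the log2 fold change was 0.11 and the adjusted p 0.0608. Exons of Becn1 overlap those of Cntd1 on the opposite strand over 3104 bases. Cntd1 had 159 to 303 counts per library and was itself called higher (log2 fold change 0.44, adjusted p = 0.011). Whether counting used the strand is not given in the sources used here. Uvrag, which replaces ATG14 in a second complex acting on endosomes and late autophagosomes, had 105, 106 and 107 CPM in the CON libraries and 93.9, 90.2 and 87.5 CPM after sTREM-1. It fell by 14.4%, a log2 fold change of -0.22 (standard error 0.03, adjusted p = 4.68e-06), with all treated libraries below the untreated ones. The longest Uvrag transcript carries stretches of up to 345 bases with at least 95% identity to transcripts of other genes. Exons of Uvrag also overlap those of Gm45187 on the opposite strand over 1589 bases, and Gm45187 was not among the counted gene symbols. Atg14, the subunit of the autophagy-specific complex, had 25.5, 26.2 and 29.7 CPM against 26.1, 27.3 and 26.8 CPM, a log2 fold change of -0.02. Pik3r4, the regulatory subunit VPS15, and Ambra1, a Beclin 1 partner, had log2 fold changes of 0.08 and -0.07 and were not called.

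Of the 6 genes for PI3P readers and lipid transfer, 2 were higher and 1 was lower. The shares were again 33.3% and 16.7%, against 16.5% and 14.1% of all tested genes. Atg9a, a lipid scramblase carried by the vesicles that seed the membrane, lies on chromosome 1 from 75180860 to 75192196 and had 58.8, 54.8 and 59.0 CPM in the CON group and 64.2, 63.8 and 66.9 CPM after sTREM-1. It rose by 12.8%, a log2 fold change of 0.17 (standard error 0.04, adjusted p = 0.00142). Exons of Atg9a overlap those of Ankzf1 on the opposite strand, a gene of 1454 to 1687 counts per library that was not called. Atg9a also shares 1073 bases at 99.9% identity with Gm29253 on the same strand, which was not among the counted gene symbols. Atg2b, a lipid transfer protein, had 145, 138 and 136 CPM against 146, 153 and 146 CPM, with CON replicate 1 nearly at the treated level. Its log2 fold change was 0.09 (standard error 0.03, adjusted p = 0.0361), and the adjusted p was 0.119 with upper-quartile scaling, 0.114 without CON replicate 2, 0.194 without CON replicate 3 and 0.203 without sTREM-1 replicate 2. Its exons overlap those of Gskip on the opposite strand over 383 bases, and Gskip was called lower (log2 fold change -0.18). Vmp1, a membrane protein of the endoplasmic reticulum needed to form autophagosomes, had 134, 139 and 131 CPM in the CON libraries and 128, 125 and 121 CPM after sTREM-1, a log2 fold change of -0.11 (standard error 0.03, adjusted p = 0.00669). Mir21a, whose exon lies within that of Vmp1, had 0 counts in all 6 libraries. Wipi1 and Wipi2, which bind PI3P, had log2 fold changes of 0.20 (adjusted p = 0.143) and -0.03. Atg2a had only 50 to 120 counts in the CON libraries and 44 to 79 after sTREM-1, and its log2 fold change of -0.39 had a 95% interval of -0.999 to 0.22, too wide at this depth to show a difference.

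None of the 5 genes of the initiation complex was called, where 30.5% of all tested genes were. Ulk1, the starting kinase, had 24.2, 21.4 and 22.8 CPM in the CON libraries and 24.3, 24.3 and 24.7 CPM after sTREM-1, and Ulk2 had a log2 fold change of 0.07. Rb1cc1, encoding the scaffold FIP200, had 103, 102 and 106 CPM against 110.1, 111 and 107 CPM, a log2 fold change of 0.08 (95% interval 0.01 to 0.14, adjusted p = 0.0692). Atg13, which links kinase and scaffold, had a log2 fold change of 0.02 with a 95% interval of -0.03 to 0.07. Atg101, the stabilizer of ATG13, had a log2 fold change of 0.07.

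Of the 2 genes of fusion with lysosomes 1 was called lower, and the difference between them was not tested. Of all tested genes 14.1% were called lower. Epg5, a tether between autophagosomes and lysosomes, lies on chromosome 18 from 77938465 to 78035013 and had 109, 107 and 120.2 CPM in the CON libraries and 93.6, 94.9 and 99.1 CPM after sTREM-1. It fell by 14.7%, a log2 fold change of -0.23 (standard error 0.04, adjusted p = 1.87e-05). Stx17, the SNARE of the autophagosome, had 29.0, 26.7 and 29.1 CPM against 26.6, 29.3 and 25.2 CPM, and its groups overlapped (log2 fold change -0.06, adjusted p = 0.479).

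The levels of the 41 genes, in CPM per kb of the longest protein-coding transcript, ran over several orders of magnitude. Sqstm1 had 1325 CPM per kb in the CON group and 1087 after sTREM-1, and Tax1bp1, next in order, had 103 and 98.8. Atg13, Map1lc3b and Gabarapl1 followed with 83.7, 68.3 and 50.4 CPM per kb in the CON group. The sum over the tested genes was 6289 to 6477 CPM in the CON libraries and 5609 to 5776 CPM after sTREM-1, and most of it was Sqstm1. Gabarap, with 3.83 CPM per kb, stood at place 36 of 41 and far below the other ATG8 genes, and Wipi1 and Atg2a were the lowest detected genes. These values depend on the transcript model used.

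**Figure D3:**
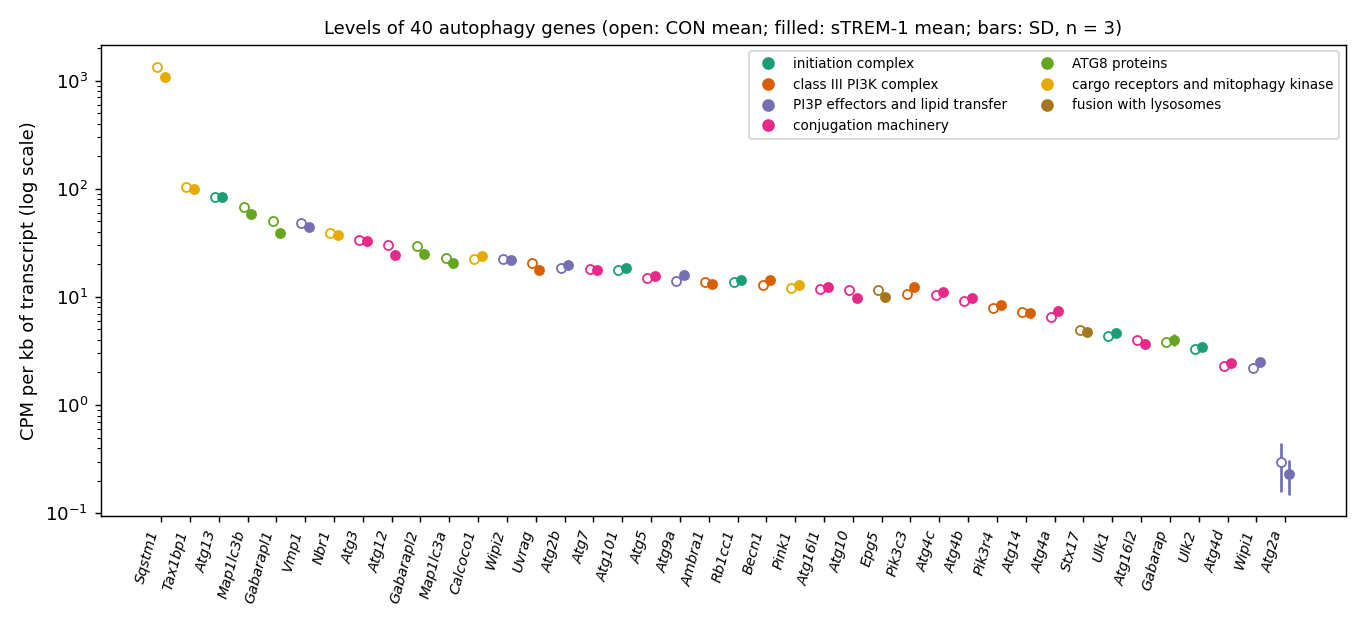
Mean CPM per kb of transcript (vertical axis, log scale) of the 40 detected genes in the CON group (open) and after sTREM-1 (filled), with SD over 3 libraries as bars, ordered by the CON level and coloured by role. Sqstm1 stands alone at the top, Map1lc3b and Gabarapl1 are among the first 5, and Atg2a, at the end, has the widest bars.

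Other genes of the pathway came from a list of 60 symbols, of which 59 were in the table and 56 were tested. Of these, 18 were higher and 11 lower, or 51.8% of the 56 (32.1% higher and 19.6% lower), against 30.5% of all tested genes (16.5% higher and 14.1% lower) and 42% of genes of at least 10 CPM. Their median log2 fold change was 0.01. With upper-quartile scaling 14 were higher and 14 lower. The same scaling moved the calls among all genes from 2324 higher and 1988 lower to 1977 higher and 2383 lower. Bnip3, a mitophagy receptor that is a known target of hypoxia signaling, had 250.1, 283 and 253 CPM in the CON libraries and 379, 402 and 367 CPM after sTREM-1, a rise of 46.1% (log2 fold change 0.55, standard error 0.03, adjusted p = 1.94e-13). Its relative Bnip3l rose by 23.4%. Receptors differed in direction. Fam134b, an ER-phagy receptor now named Retreg1, fell from 180.4, 179 and 181 CPM to 139, 137 and 133 CPM (log2 fold change -0.40, standard error 0.03, adjusted p = 2.45e-12). Ddit4 and Deptor, both inhibitors of mTORC1 signaling, rose by 33.7% and 31.4%, and Stk11, the kinase LKB1 upstream of AMPK, by 24.0%. Of the core subunits of mTORC1, Rptor rose by 10.2% (adjusted p = 0.00652), and Mtor and Mlst8 were not called. Atg9b, the second ATG9 gene, rose by 30.2%.

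Among the genes that fell, Tgm2, a transglutaminase, had a log2 fold change of -0.41 and Tecpr1, which takes part in autophagosome maturation, of -0.35. Nrbf2, a subunit of the autophagy-specific PI3-kinase complex, had 21.9, 22.3 and 21.5 CPM against 20.4, 17.8 and 17.5 CPM (log2 fold change -0.24, adjusted p = 0.0105), and without sTREM-1 replicate 2 or 3 the adjusted p was 0.0516 or 0.0559. The AMPK subunits Prkaa2 and Prkab1 had log2 fold changes of -0.22 and -0.20. The other subunits did not fall with them. Prkaa1 was called higher (log2 fold change 0.12, adjusted p = 0.00713), and Prkab2, Prkag1 and Prkag2 were not called. The group of nutrient and energy kinases also holds genes that are not kinases, among them Ddit4, Deptor and Rptor. Of its 15 tested genes 6 were higher and 2 lower, as were 6 and 2 of the 15 tested selective receptors (40% and 13.3% in each group). Of the 13 fusion genes 4 were higher and 3 lower (30.8% and 23.1%). Of the 5 tested cofactors of initiation and the PI3-kinase, 0 were higher and 3 lower (60%). Of the 8 membrane and PI3P effectors 2 were higher and 1 lower (25% and 12.5%). Among all tested genes 16.5% were higher and 14.1% lower, and among those of at least 10 CPM 23.4% and 18.7%. These counts are small. In the first 2 groups the share called lower was near that of all tested genes, and the share called higher was above it.

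**Figure D4:**
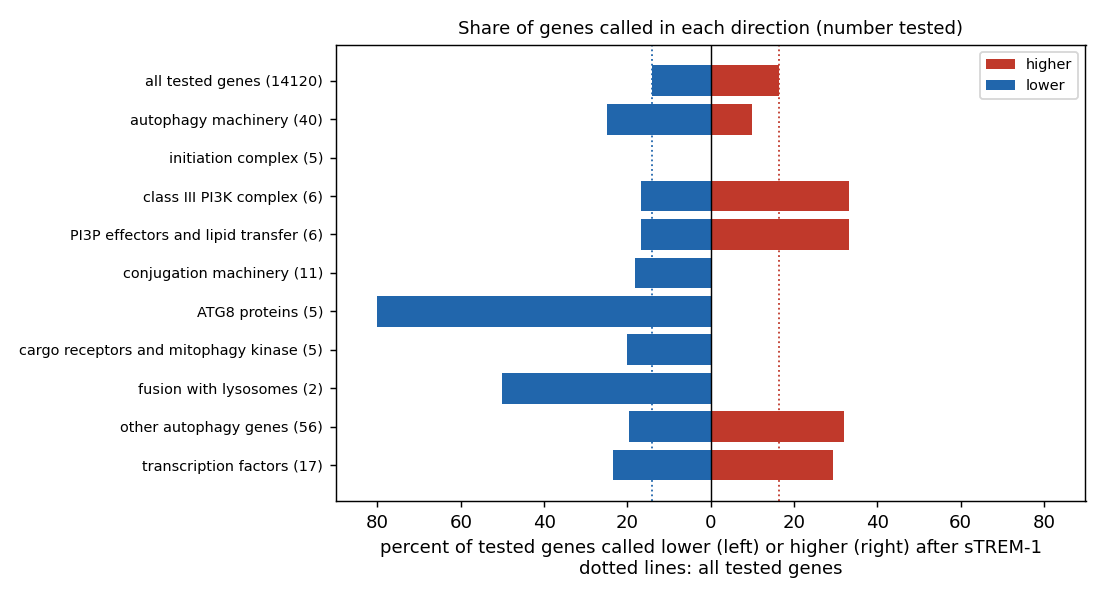
Percent of tested genes called lower (left) and higher (right) after sTREM-1 in each role of the autophagy genes and in the further lists, with the number of tested genes in brackets and the shares of all 14120 tested genes as dotted lines. ATG8 genes reach 80% on the lower side and the initiation complex has no called gene.

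Transcription factors known to act on autophagy genes also moved in both directions. Of 19 listed factors 17 were tested, and 5 were higher and 4 lower, or 52.9%, against 30.5% of all tested genes and 42% of those of at least 10 CPM. The median level of the tested factors was 115 CPM, against 23.7 CPM over all tested genes. Tfeb, the main activator of lysosomal and autophagy genes, had a log2 fold change of 0.05 (95% interval -0.13 to 0.24), whereas its relatives Mitf and Tfe3 had log2 fold changes of 0.16 (adjusted p = 0.000651) and 0.10 (adjusted p = 0.0495). The call of Tfe3 was lost in several alternatives, among them RLE factors (adjusted p = 0.0573), DESeq2 (adjusted p = 0.0743) and the fits without CON replicate 1 or 2 or without each sTREM-1 replicate in turn (adjusted p from 0.056 to 0.236). Zkscan3, a repressor of this gene network, had a log2 fold change of -0.12 (adjusted p = 0.0171, and 0.0642 without sTREM-1 replicate 3). Foxo1, an activator that AKT holds out of the nucleus, had 30.7, 31.5 and 34.8 CPM in the CON libraries and 27.1, 27.8 and 27.6 CPM after sTREM-1, a log2 fold change of -0.23 (standard error 0.06, adjusted p = 0.00165). Ddit3 (CHOP), of the integrated stress response, and Cebpb, an inflammatory factor, had log2 fold changes of -0.26 and -0.25, while Atf4 had 0.05 and was not called. Srebf2, best known for sterol synthesis, had the largest change of the list, at 0.44, followed by Trp53 at 0.17 and E2f1 at 0.15 among the called genes that rose. Nfe2l2, the antioxidant factor that acts on Sqstm1, and Hif1a had log2 fold changes of -0.02 and -0.01.

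**Figure D5:**
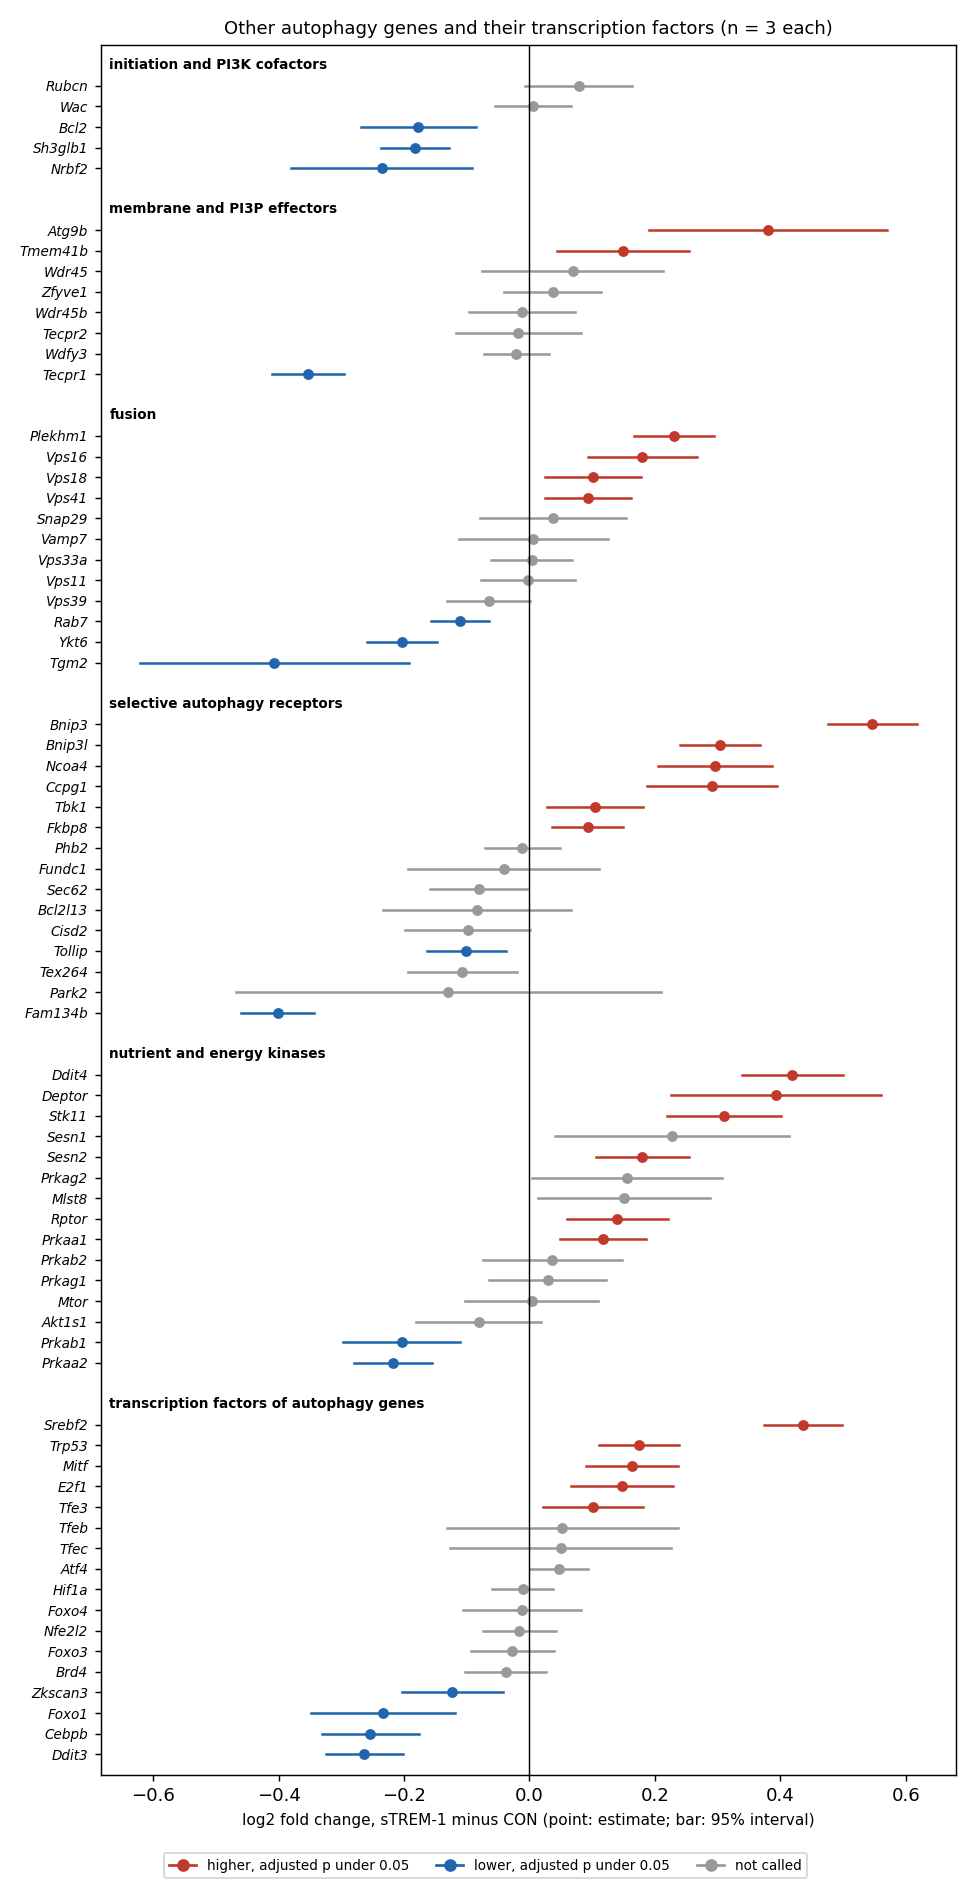
Log2 fold change (horizontal axis) with its 95% interval for the other tested autophagy genes by role and for their transcription factors. Bnip3, Srebf2 and Ddit4 lie farthest to the right and Tgm2, Fam134b and Tecpr1 farthest to the left, and Vamp8, with a log2 fold change of -0.50 that was not called and a wide interval, is not drawn.

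Markers of microglia and macrophages summed to 3186 to 3208 CPM in the CON libraries and 3439 to 3513 CPM after sTREM-1, with Aif1 at 0 and Cx3cr1, P2ry12 and Tmem119, which mark microglia of the brain, under 2 CPM on average in both groups. Of the 12 tested markers of this list 5 were higher (41.7%) and 1 was lower (8.33%). Of genes of at least 10 CPM, 23.4% were higher and 18.7% lower, and the median level of these markers was 328 CPM. Csf1r had the largest rise in CPM, from a mean of 521 in the CON group to 753 after sTREM-1. Fcer1g, the marker called lower, had means of 384 and 348 CPM, and Cd68 and Itgam were not called. Summed levels were 0.0469 to 0.277 CPM for 6 neuron markers, 0.146 to 0.479 CPM for 5 astrocyte markers, 0.317 to 0.985 CPM for 6 fibroblast markers and at most 0.0975 CPM for 6 lymphocyte markers over all libraries. Their part in the changes of the autophagy genes was not tested.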

How the data were processed

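RNA of BV2 cells was sequenced in 3 CON and 3 sTREM-1 libraries, grouped by the labels. The methods give 4 samples per group, and the labels give 3. The authors checked reads with FastQC, quantified them with RSEM. The deposited values are raw counts, as whole numbers, for each gene symbol. CPM values were computed from them here. The submitters' processing notes name HISAT2 2.0.4 and the human builds hg19 and GRCh38, whereas the table holds mouse symbols. The mouse build, annotation and strand are not given in the sources used here, so reads of overlapping or near-identical genes may be misassigned.

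Genes of low counts were removed by filterByExpr (minimum count 10). Library sizes were adjusted by TMM, and edgeR 4.0.16 (R 4.3.3) fitted the quasi-likelihood model without covariates, with Benjamini-Hochberg adjustment over all 14120 tested genes. The 95% intervals and standard errors come from the F statistic. The biological coefficient of variation was 3.99%. The autophagy genes and the other lists were chosen with earlier results of these data known, and no set test was run. Every autophagy gene is named. Library values are given for called genes whose groups do not overlap (at most 4 per role and direction), the ATG8 genes and Sqstm1, and further values for uncalled genes were chosen after they were seen. The 6 called genes of largest change in each direction are named from the other autophagy genes, and the called factors. The other AMPK subunits, Rptor, Mtor and Mlst8 are named beside them, and Csf1r and Fcer1g from the cell type markers. These were chosen after their values were seen. Coordinates and transcript lengths came from GENCODE M21 (GRCm38), promoters from RefSeq (GRCm38.p6), and near-identical copies from blastn at 95% identity over at least 100 bases. In simulated counts of 13945 genes for this comparison, of which 200 were changed 1.2-fold, 57% of the changed genes were called, and 5.79% of calls fell on unchanged genes. The simulation changed far fewer genes than the 4312 called in the data and drew them at all levels of expression. The 57% is therefore not the share that would be found among the autophagy genes. Alternatives were RLE and upper-quartile factors, 2 other filters, the exact test of edgeR, DESeq2 1.42.0, a fit with the replicate number as block, fits without 1 library, and other thresholds. The correlations across genes between the deviations of libraries with equal number were -0.02, -0.03 and -0.01. They gave no sign that replicate numbers pair the libraries, but 3 such values cannot exclude it. Libraries of a group differed by more than sampling noise (chi-square per gene 3.41 to 4.82). The summed level of 1 further list of cell type markers is not reported here, so the sums given do not cover every cell type examined.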

Additional observations from a re-analysis of the deposited data

How the results depend on the processing

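The number of autophagy genes called stayed between 11 and 14 when each library was left out, and between 13 and 14 under the other scalings, filters, tools and the replicate block. In the latter fits 4027 to 4613 of all genes were called, against 4312 in the main fit. At an adjusted p under 0.01 it was 11 autophagy genes, 3 higher and 8 lower. Of all 14120 tested genes 3031 passed that threshold, 1714 higher and 1317 lower. With an adjusted p under 0.05 and at least a 1.2-fold change, 3 autophagy genes remained, all lower. Of all tested genes 1517 met that rule, 836 higher and 681 lower. Of the 14 called genes, 10 were called in all 13 alternative fits, and the exceptions were Becn1, Atg2b, Atg10 and Map1lc3a. Of the 26 uncalled genes, 24 were called in none of them. Among all genes the fit with a replicate block called 4613, against 4312 in the main fit, although the correlations gave no sign of pairing. Of the autophagy genes it called 14, 4 higher and 10 lower. The median log2 fold change was -0.0234 with upper-quartile factors and ran from -0.0185 to 0.0325 across the fits without 1 library, highest without CON replicate 3, so its sign depended on the setting. Without 1 library in turn, all called genes numbered 3608 to 3863, other autophagy genes 24 to 28 and transcription factors 7 to 9. No call turned its direction in these fits. Changes of a few percent and genes of few counts, such as Atg2a and Gabarap, are at the limit of this depth and of 3 libraries per group.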
